A study of Mus musculus with 6 samples.

Results

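Familial amyotrophic lateral sclerosis (ALS) has been linked to mutations in genes of a few cell functions. Mouse orthologues of 8 genes grouped under this disease were examined in microglia of the SOD1 G93A mouse. These genes were *Sod1*, *Tardbp*, *Grn*, *Tbk1*, *Optn*, *Vcp*, *Sqstm1* and *Ubqln2*. Every probe set whose only gene symbol is one of these was taken, which gave 22 of 45037 probe sets and 7 of the 8 genes. *Sod1* and *Tardbp* had 5 probe sets each, *Grn* and *Ubqln2* had 3 each, and *Tbk1*, *Vcp* and *Sqstm1* had 2 each. *Optn*, which encodes the autophagy receptor optineurin, had none under this rule and is not analysed here. Microglia came from SOD1 G93A males, which carry many copies of a human SOD1 transgene with the G93A mutation on the B6SJL background (B6SJL-Tg(SOD1-G93A)1Gur/J), and from male WT littermates without the transgene, all at 90 days of age, the early symptomatic stage. CD11b-positive cells of the lumbar cord were sorted from pools of at least 6 mice and hybridised to whole-genome mouse Affymetrix arrays, 3 of SOD1 G93A and 3 of WT. Every value is a log2 signal, so a difference of 1 is a doubling, and genotypes were compared with limma, which adjusts p-values over all probe sets. Precision is limited by the number of arrays.

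The proteins of these genes meet on a few routes by which cells deal with reactive oxygen, RNA and damaged protein. *Sod1* encodes the cytosolic copper and zinc superoxide dismutase, and *Tardbp* the RNA-binding protein TDP-43, which is deposited in motoneurones of most patients with ALS. *Grn* encodes progranulin, a secreted and lysosomal protein that microglia make in large amounts. *Sqstm1* encodes p62, which links ubiquitinated cargo to the autophagosome, and *Tbk1* encodes the kinase that phosphorylates p62 and optineurin and also acts in interferon signalling. *Vcp* encodes the ATPase that extracts ubiquitinated proteins from membranes and complexes, and *Ubqln2* encodes a shuttle that carries them to the proteasome.

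In SOD1 G93A microglia 4 of the 22 probe sets were higher, both of *Sqstm1*, 1 of 3 of *Grn* and 1 of 5 of *Sod1*, and 0 were lower. The other 18 did not pass an adjusted p under 0.05, among them all those of *Tardbp*, *Tbk1*, *Vcp* and *Ubqln2*. Of all 45037 probe sets 2.71% were higher and 1.93% lower by the same rule. At an unadjusted p under 0.05, 8 of the 22 passed, 3 of them lower, where 19.5% of all probe sets passed and 9.32% were lower. The median log2 fold change of the 22 was 0.049, against 0.0032 over all probe sets, and 13 of the 22 were above 0. In 10 of the 22 the genotypes did not overlap, which held for 24.7% of all probe sets, and 6 of these 10 did not pass the test. By the methods' t-test 6 of the 22 had an unadjusted p under 0.05, as did 12.6% of all probe sets, and 0 passed after adjustment. With 1 probe set per gene, that of the highest mean signal, *Sqstm1* alone of the 7 genes was higher, where 3.53% of 18193 genes were higher and 2.08% lower.

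**Figure D1:**
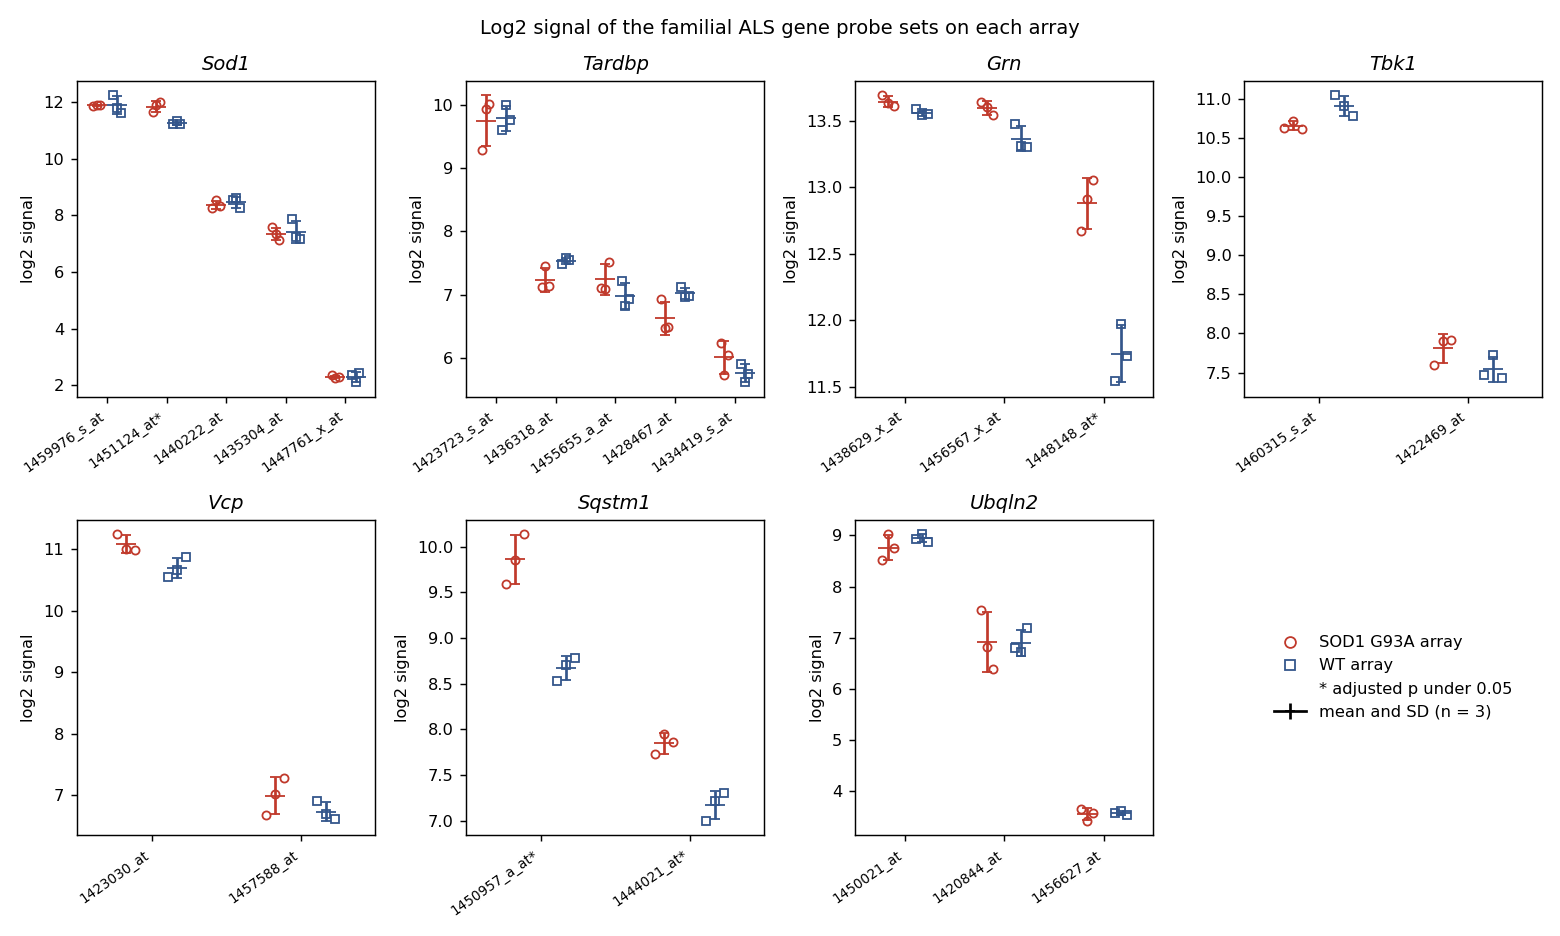
Log2 signal (y axis, its own scale for each gene) of the 22 probe sets of *Sod1*, *Tardbp*, *Grn*, *Tbk1*, *Vcp*, *Sqstm1* and *Ubqln2* (x axis) on each array, with SOD1 G93A arrays as red circles, WT arrays as blue squares, and the mean and SD of 3 arrays as lines. Asterisks mark the 4 probe sets with an adjusted p under 0.05, in each of which all SOD1 G93A arrays lie above all WT arrays.

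**Figure D2:**
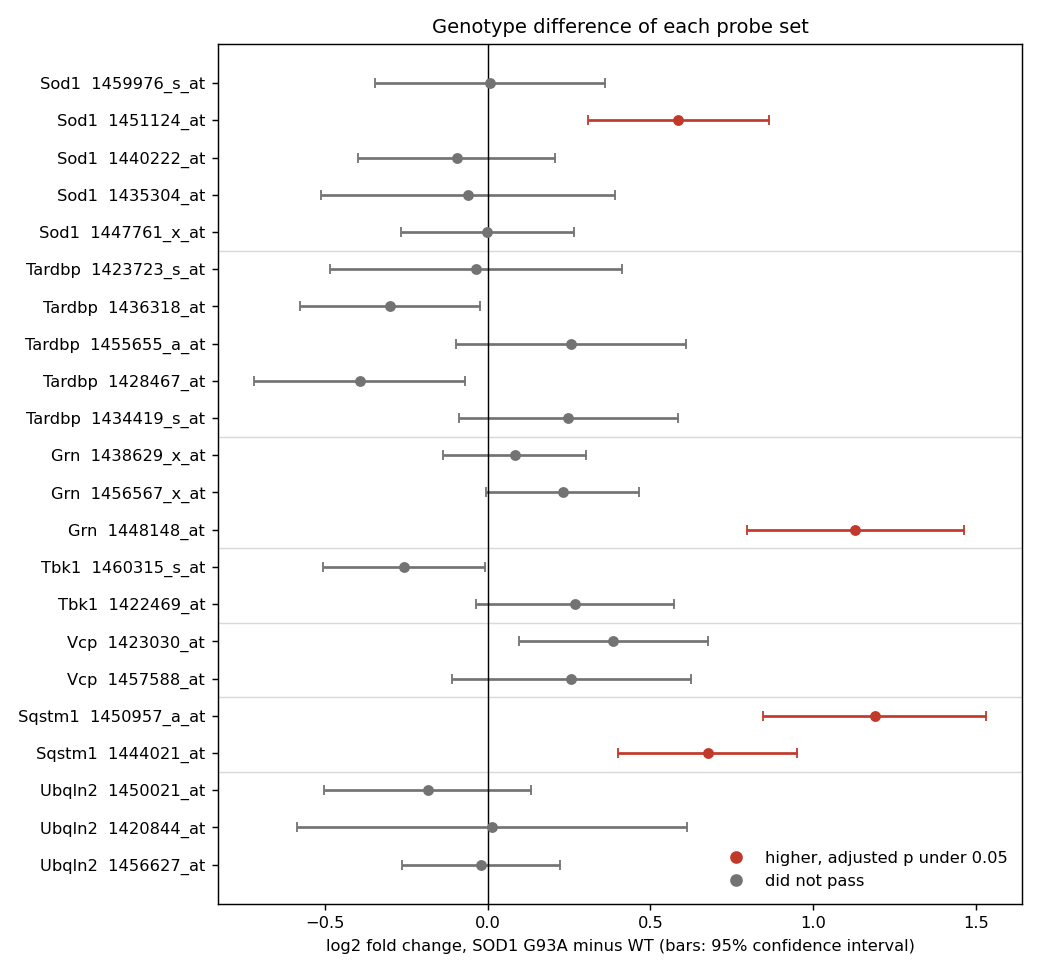
Log2 fold change of each of the 22 probe sets, SOD1 G93A minus WT (x axis), with its 95% confidence interval from limma as a bar. The 4 in red have an adjusted p under 0.05 and range between 0.59 (*Sod1* 1451124_at) and 1.19 (*Sqstm1* 1450957_a_at), and intervals of most others cross 0.

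Sequence around the start of the 3 genes with a higher probe set is shown because these are the members in which a difference passed the test, and capitals mark the 50 bases from the annotated start onwards. The sequences are RefSeq's, build GRCm38.p6, read on the gene's strand. *Sod1* lies on chromosome 16 (chr16:90220512-90220811, plus strand), *Grn* on chromosome 11 (chr11:102430257-102430556, plus strand) and *Sqstm1* on chromosome 11 (chr11:50210771-50211070, minus strand).
Sod1: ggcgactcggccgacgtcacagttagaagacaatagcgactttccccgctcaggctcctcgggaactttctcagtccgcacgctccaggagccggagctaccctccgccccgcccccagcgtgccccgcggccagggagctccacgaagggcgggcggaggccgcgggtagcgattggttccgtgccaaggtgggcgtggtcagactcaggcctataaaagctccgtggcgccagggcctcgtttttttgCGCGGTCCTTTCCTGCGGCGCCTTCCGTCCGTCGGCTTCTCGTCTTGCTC
Grn: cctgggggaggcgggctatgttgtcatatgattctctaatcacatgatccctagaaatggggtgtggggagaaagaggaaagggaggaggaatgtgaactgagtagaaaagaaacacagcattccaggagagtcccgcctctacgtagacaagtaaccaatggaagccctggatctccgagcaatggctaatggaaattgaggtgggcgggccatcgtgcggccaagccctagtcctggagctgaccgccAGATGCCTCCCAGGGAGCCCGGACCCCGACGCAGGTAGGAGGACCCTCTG
Sqstm1: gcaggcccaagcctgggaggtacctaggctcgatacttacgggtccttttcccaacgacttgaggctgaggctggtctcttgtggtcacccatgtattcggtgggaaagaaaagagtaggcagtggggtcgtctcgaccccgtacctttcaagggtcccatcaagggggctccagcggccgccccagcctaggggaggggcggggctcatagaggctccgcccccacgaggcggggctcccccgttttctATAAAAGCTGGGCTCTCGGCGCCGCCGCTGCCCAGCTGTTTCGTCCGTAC
G and C made up 66.7% of the *Sod1* stretch, 56.3% of that of *Grn* and 63.3% of that of *Sqstm1*. Both strands were searched for CACGTG (an E-box, bound by the lysosomal regulator TFEB among other factors), for its flanked form TCACGTGA, and for TGACNNNGC (the core of the antioxidant response element bound by NRF2). Of 32851 such stretches 7.15% held CACGTG, 0.974% held TCACGTGA, which contains CACGTG, and 12.4% held TGACNNNGC. In the 250 bases before and 50 bases after the start, *Grn* and *Sqstm1* held none of the 3. *Sod1* held TGACNNNGC on its minus strand at position -56 from the start. Sequence further from the start was not searched. Of the members that did not pass, *Vcp* held TGACNNNGC at position -114, *Tbk1* held CACGTG at position 6 and *Tardbp* held none. A match is a description of the letters, not of binding, and *Ubqln2* is not in the table of starts.

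*Sqstm1* showed the largest difference of the members, and both of its probe sets passed. On 1450957_a_at its log2 signal was 9.59, 9.85 and 10.14 on the SOD1 G93A arrays, against 8.53, 8.71 and 8.78 on the WT arrays. The lowest SOD1 G93A array stood above the highest WT array. The log2 fold change was 1.19 (95% confidence interval 0.85 to 1.53, adjusted p = 0.00543), which is 2.28-fold. On 1444021_at the signal was 7.72, 7.95 and 7.86 in SOD1 G93A and 6.997, 7.21 and 7.30 in WT, again without overlap. Its log2 fold change was 0.68 (0.40 to 0.95, adjusted p = 0.0198), or 1.60-fold. p62 is itself degraded by autophagy, a step that acts on the protein and is not seen on these arrays. The call of 1450957_a_at held when each array was left out in turn, with adjusted p between 0.00333 and 0.0348. That of 1444021_at was lost without SOD1 G93A replicate 2 (adjusted p = 0.0815), SOD1 G93A replicate 3 (0.0831), WT replicate 2 (0.0653) or WT replicate 3 (0.0539).

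*Grn* was higher by one probe set and not by its other 2. On 1448148_at the log2 signal was 12.67, 12.91 and 13.05 on the SOD1 G93A arrays and 11.54, 11.97 and 11.73 on the WT arrays. All SOD1 G93A arrays lay above all WT arrays. The log2 fold change was 1.13 (0.80 to 1.46, adjusted p = 0.00607), or 2.19-fold, and its adjusted p lay between 0.00559 and 0.0376 when each array was left out. On 1438629_x_at, the *Grn* probe set with the highest mean signal, values were 13.69, 13.63 and 13.61 in SOD1 G93A and 13.59, 13.54 and 13.55 in WT. These did not overlap either, but the log2 fold change was only 0.083 (-0.14 to 0.30, adjusted p = 0.71). On 1456567_x_at the signal was 13.64, 13.60 and 13.54 in SOD1 G93A and 13.48, 13.31 and 13.31 in WT, a log2 fold change of 0.23 (-0.0056 to 0.47, adjusted p = 0.269). The suffix x_at marks probe sets with probes that can match other transcripts, and whether they did so here was not tested.

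The 3 *Grn* probe sets thus gave different sizes of change, and this difference was tested in itself. Each probe set's signal was set, on the same array, against the mean of the other probe sets of its gene, and limma was run on these differences over 25762 probe sets, of which 1.43% passed. For 1448148_at the difference from the other 2 was -0.99, -0.71 and -0.52 on the SOD1 G93A arrays and -1.99, -1.46 and -1.69 on the WT arrays. The genotypes differed by 0.97 (adjusted p = 0.0308), the single one of the 22 members to pass. Its adjusted p was 0.124 without SOD1 G93A replicate 2, 0.121 without SOD1 G93A replicate 3, 0.0647 without WT replicate 1 and 0.1 without WT replicate 3. Both x_at probe sets had signals near the top of the arrays, whose highest values lay between 14.51 and 14.59. Of 142 probe sets with a mean signal of 13 or more, 9.15% passed in either direction, and their median absolute log2 fold change was 0.19, against 0.23 for probe sets with means between 8 and 10. The part of signal height in the difference between the *Grn* probe sets was not tested.

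*Sod1*, the mouse counterpart of the transgene, gave 1 higher probe set of 5. On 1451124_at the log2 signal was 11.64, 11.88 and 12.01 on the SOD1 G93A arrays, against 11.22, 11.33 and 11.23 on the WT arrays. The genotypes did not overlap, and the log2 fold change was 0.59 (0.31 to 0.86, adjusted p = 0.0335). On 1459976_s_at, which had the highest mean signal of the *Sod1* probe sets, values were 11.87, 11.90 and 11.90 in SOD1 G93A and 12.24, 11.78 and 11.63 in WT. Here the SOD1 G93A arrays lay within the WT range, with a log2 fold change of 0.0074 (-0.35 to 0.36, adjusted p = 0.988). The 3 remaining *Sod1* probe sets had log2 fold changes between -0.095 and -0.00084, and one of them, 1447761_x_at, had a mean signal of 2.30, close to background. Set against the other 4 on the same array, 1451124_at was higher by 0.62 in SOD1 G93A (adjusted p = 0.094), which did not pass. Its genotype call was kept without SOD1 G93A replicate 1 but lost without any other single array, with adjusted p = 0.115 without SOD1 G93A replicate 2, 0.123 without SOD1 G93A replicate 3, 0.0606 without WT replicate 1, 0.0858 without WT replicate 2 and 0.116 without WT replicate 3. The probes were designed on mouse sequence, and whether any of them detects the human transgene was not tested, so the *Sod1* signal neither checks the genotype labels nor separates mouse from human RNA.

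**Figure D3:**
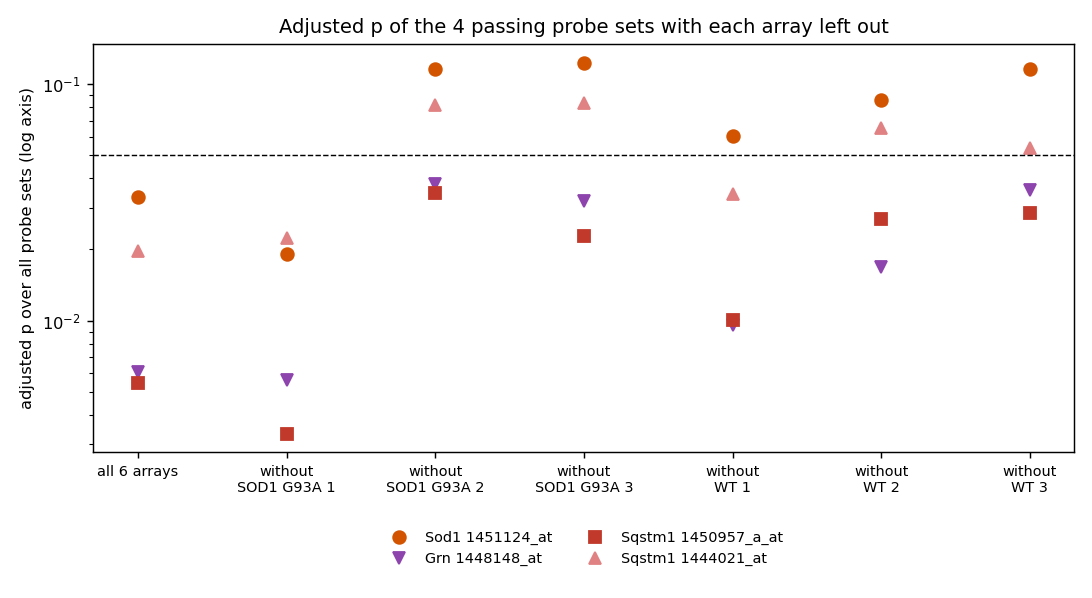
Adjusted p (log axis) of the 4 probe sets that passed, with all 6 arrays and with each array left out in turn (x axis); the dashed line is 0.05. *Grn* 1448148_at and *Sqstm1* 1450957_a_at stay below the line throughout, *Sqstm1* 1444021_at lies above it in 4 settings and *Sod1* 1451124_at in 5.

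*Tardbp*, *Tbk1*, *Vcp* and *Ubqln2* had 0 of 12 probe sets past the test. In 4 of the 12 the genotypes did not overlap, where 24.7% of all probe sets did not. On *Tardbp* 1423723_s_at, its probe set of highest signal, values were 9.29, 9.94 and 10.02 in SOD1 G93A and 9.60, 9.99 and 9.76 in WT. The spread among SOD1 G93A arrays covered all WT arrays, and the log2 fold change was -0.036 (-0.48 to 0.41, adjusted p = 0.951). The 4 others of *Tardbp* ran in both directions, with log2 fold changes of -0.39 (1428467_at, adjusted p = 0.166), -0.30 (1436318_at, adjusted p = 0.216), 0.25 (1434419_s_at, adjusted p = 0.417) and 0.26 (1455655_a_at, adjusted p = 0.422). The first of these, with signals of 6.93, 6.47 and 6.49 in SOD1 G93A and 7.12, 6.97 and 6.98 in WT, did pass without SOD1 G93A replicate 1, at a log2 fold change of -0.54 (adjusted p = 0.0409).

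*Tbk1* 1460315_s_at had 10.64, 10.72 and 10.62 in SOD1 G93A and 11.05, 10.91 and 10.79 in WT. All SOD1 G93A arrays were below all WT arrays, with a log2 fold change of -0.26 (-0.51 to -0.0080, adjusted p = 0.24). Its second probe set, 1422469_at, had 7.60, 7.90 and 7.92 in SOD1 G93A and 7.47, 7.73 and 7.42 in WT, a log2 fold change of 0.27 (-0.036 to 0.57, adjusted p = 0.32). The 2 *Tbk1* probe sets thus had opposite signs, and their difference of 0.53 did not pass either (adjusted p = 0.113).

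*Vcp* 1423030_at had 11.25, 11.01 and 10.99 in SOD1 G93A and 10.54, 10.67 and 10.87 in WT. The genotypes did not overlap, and the log2 fold change was 0.39 (0.096 to 0.68, adjusted p = 0.133). *Vcp* 1457588_at overlapped, with a log2 fold change of 0.26 (-0.11 to 0.62, adjusted p = 0.441). *Ubqln2* 1450021_at had 8.52, 9.02 and 8.75 in SOD1 G93A and 8.94, 9.03 and 8.88 in WT, an overlap, with a log2 fold change of -0.18 (-0.50 to 0.13, adjusted p = 0.54). *Ubqln2* 1420844_at and 1456627_at had 0.014 and -0.021, and the mean signal of 1456627_at was 3.56, close to background. By their highest-signal probe sets, the intervals of *Tardbp* and *Ubqln2* include 0. Those of *Tbk1* and *Vcp* exclude 0, though neither passed after adjustment. These 4 intervals lie between -0.51 and 0.68 on the log2 scale, and that of *Tardbp* 1428467_at reaches down to -0.72. Changes within a probe set's own interval were not resolved.

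Genes that work beside the members were then counted, each by its probe set of highest signal. Among partners of progranulin, 4 of 16 measured genes were higher and 1 was lower, where 3.53% of all genes were higher and 2.08% lower. Their median log2 fold change was 0.22 against 0.022 over all genes. Of the 16, 8 had an unadjusted p under 0.05, against 21.6% of all genes. *Mmp12*, the macrophage elastase, which can cut progranulin, had 2.30 (adjusted p = 0.00171), and the lysosomal proteases *Ctsl*, *Ctsb* and *Ctsd*, which process progranulin into granulins, had 1.16 (adjusted p = 0.0122), 1.02 (adjusted p = 0.00482) and 0.67 (adjusted p = 0.0103). The lower gene, *Prtn3*, encodes the neutrophil protease proteinase 3 and had -1.41 (adjusted p = 0.0291). Neutrophil and monocyte markers had a mean log2 signal of 11.21 ± 0.31 in SOD1 G93A and 12.03 ± 0.32 in WT (SD, n = 3 each), a difference of -0.81, and their part in the value of *Prtn3* was not tested. *Psap*, which encodes prosaposin, a partner that carries progranulin to the lysosome, had 0.59 (adjusted p = 0.0516) and did not pass. *Sort1*, which encodes the progranulin receptor sortilin, had -0.034 (adjusted p = 0.936), and *Tmem106b*, a lysosomal membrane protein gene linked to progranulin deficiency in humans, had 0.16 (adjusted p = 0.544), while another of its 4 probe sets was higher. The calls of *Mmp12* and *Ctsb* held with each array left out, although *Mmp12* had WT signals between 3.62 and 4.08, near background. The call of *Ctsl* was lost without SOD1 G93A replicate 2 (adjusted p = 0.0507), SOD1 G93A replicate 3 (0.0501) or WT replicate 3 (0.0607), and *Ctsd* without SOD1 G93A replicate 3 (0.0549) or WT replicate 3 (0.0506). *Prtn3* passed without WT replicate 1 (0.00241) but not without SOD1 G93A replicate 1 (0.0595), SOD1 G93A replicate 2 (0.0938), SOD1 G93A replicate 3 (0.0849), WT replicate 2 (0.1) or WT replicate 3 (0.0878).

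Of genes that handle superoxide, peroxide and copper, beside *Sod1*, 6 of 13 had an unadjusted p under 0.05, where 21.6% of all genes did. Where 3.53% of all genes were higher and 2.08% lower, 2 of the 13 were higher and 0 lower (median 0.15). These were *Prdx4*, which encodes a peroxiredoxin of the endoplasmic reticulum, at 1.39 (adjusted p = 0.00114), and *Atox1*, which encodes a copper chaperone, at 0.99 (adjusted p = 0.00311), and both held with each array left out. They passed on 1 of 4 probe sets of *Prdx4* and 2 of 4 of *Atox1*. *Ccs*, which encodes the chaperone that loads copper onto SOD1, had 0.15 (adjusted p = 0.535). The mitochondrial *Sod2* had 0.13 (adjusted p = 0.562) and the extracellular *Sod3* -0.18 (adjusted p = 0.489).

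Partners of the other members gave 0 calls by their probe sets of highest signal, of which 21.6% over all genes had an unadjusted p under 0.05. Among autophagy receptors, TBK1 partners and the LC3 family, beside *Sqstm1* and *Tbk1*, 0 of 17 passed (median 0.039), 5 of them having an unadjusted p under 0.05. The largest differences were those of *Nfe2l2*, which encodes NRF2, a factor that p62 releases from KEAP1, at 0.65 (adjusted p = 0.159), and of *Gabarap*, a gene of the LC3 family, at 0.42 (adjusted p = 0.192). Of VCP cofactors 0 of 24 passed (median -0.044, 8 at an unadjusted p under 0.05), with *Svip*, which encodes an inhibitor of VCP in degradation from the endoplasmic reticulum, at -0.72 (adjusted p = 0.0851) and *Ubxn1* at -0.46 (adjusted p = 0.0962). Of 4 measured ubiquilin and proteasomal receptor genes 0 passed (median 0.28, 2 at an unadjusted p under 0.05), with *Psmd2* at 0.40 (adjusted p = 0.0876) and *Psmd4* at 0.35 (adjusted p = 0.159), both of the proteasome's regulatory particle. Of RNA-binding partners of TDP-43, 0 of 12 passed (median -0.023, 3 at an unadjusted p under 0.05), with *Hnrnpr* at -0.55 (adjusted p = 0.178) and *Pabpc1* at 0.48 (adjusted p = 0.105). Probe sets of lower signal did pass for *Svip* (1 of 2, lower), *Hnrnpr* (1 of 5, lower) and *Derl1* (1 of 4, higher).

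Among 26 measured genes of 33 others linked to ALS, 1 was higher and 3 were lower (median -0.10). Of all genes 3.53% were higher and 2.08% lower. Of the 26, 10 had an unadjusted p under 0.05, against 21.6% of all genes. *C9orf72*, the orthologue of a gene often mutated in familial ALS, had 8.21, 8.28 and 8.34 in SOD1 G93A and 7.30, 7.77 and 7.63 in WT, without overlap. Its log2 fold change was 0.71 (adjusted p = 0.0243), lost without SOD1 G93A replicate 2 (adjusted p = 0.0883), SOD1 G93A replicate 3 (0.0986) or WT replicate 3 (0.0806). The lower genes were *Kif5a*, a kinesin gene of neurones, at -1.38 (adjusted p = 0.0106), *Nefh*, the neurofilament heavy chain gene, at -0.90 (adjusted p = 0.0126), and *Atxn2*, an RNA-binding protein gene, at -0.51 (adjusted p = 0.0231). *Kif5a* passed on 1 of its 3 probe sets and *Atxn2* on 2 of its 6. *Nefh* had SOD1 G93A signals between 4.72 and 4.94, close to background. *Vapb* did not pass by its probe set of highest signal (0.60, adjusted p = 0.154), while another of its 3 probe sets was lower. *Kif5a* was lost without SOD1 G93A replicate 2 (adjusted p = 0.0546) or WT replicate 3 (0.0503), *Nefh* without SOD1 G93A replicate 2 (0.0605), and *Atxn2* without SOD1 G93A replicate 2 (0.0816), SOD1 G93A replicate 3 (0.0863), WT replicate 2 (0.0799) or WT replicate 3 (0.0806). Neurone markers, of which 3 of 7 were lower and 1 higher, had a mean log2 signal between 5.21 and 5.29 on SOD1 G93A arrays and between 5.87 and 6.18 on WT arrays, and their part in the values of *Kif5a* and *Nefh* was not tested. In sorted pools, fewer cells of a type and less RNA per cell cannot be told apart.

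**Figure D4:**
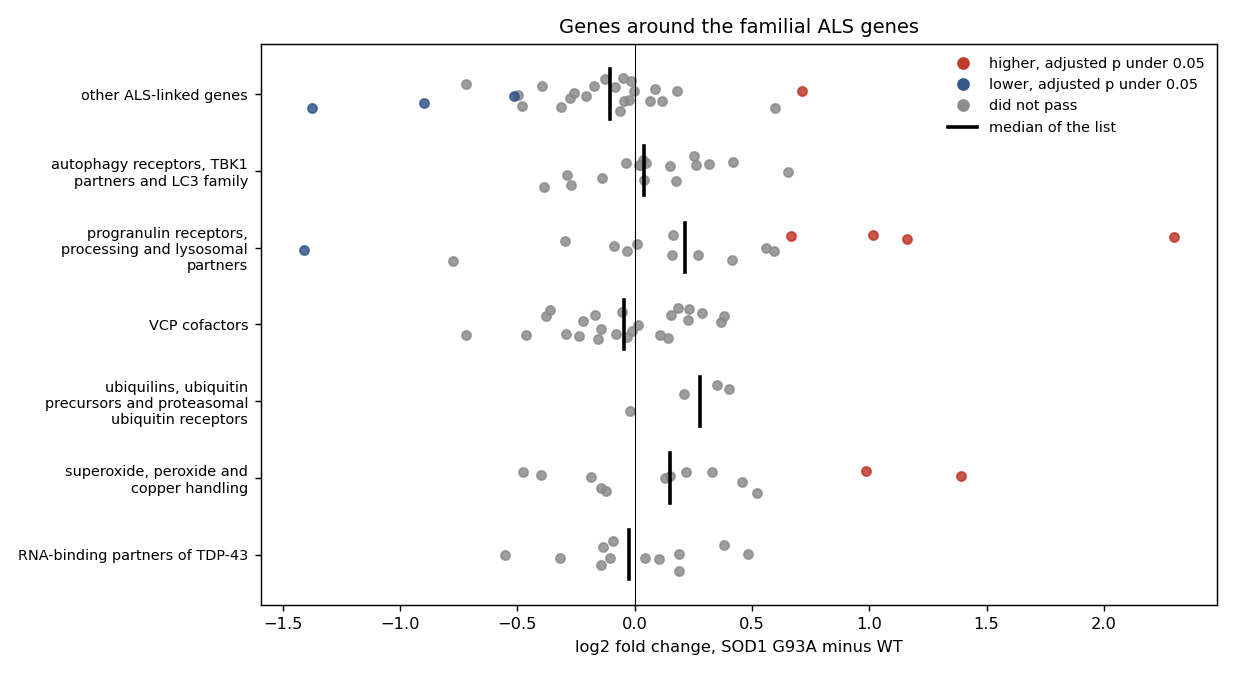
Log2 fold change, SOD1 G93A minus WT (x axis), of the measured genes of 7 lists around the members (rows), each gene by its probe set of highest signal, red where higher and blue where lower at an adjusted p under 0.05, with the list's median as a black bar. Calls stand in 3 of the lists, the progranulin partners (4 higher, 1 lower), superoxide handling (2 higher) and the other ALS-linked genes (1 higher, 3 lower).

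Arrays of both genotypes carried strong microglial signal, with mean log2 signals of 7 microglial markers between 11.87 and 12.02 in SOD1 G93A and between 11.70 and 11.91 in WT, 1 higher (*Fcrls*) and 0 lower. Means of other marker lists lay lower in SOD1 G93A, with p = 0.1 by the exact permutation test, two-sided, for each: between 6.56 and 7.16 against between 7.39 and 8.11 in WT for astrocytes (3 of 7 lower), between 9.06 and 9.26 against between 9.98 and 10.08 for oligodendrocytes (2 of 5), between 10.86 and 11.40 against between 11.65 and 12.22 for neutrophils and monocytes (1 of 5) and between 8.50 and 9.13 against between 9.56 and 9.87 for border macrophages (1 of 4). Endothelial markers lay between 6.60 and 6.87 in SOD1 G93A and between 6.27 and 6.54 in WT (1 of 4 higher). Of all genes 3.53% were higher and 2.08% lower, and 21.6% had an unadjusted p under 0.05. That unadjusted p was reached by 2 of 7 microglial, 5 of 7 astrocyte, 2 of 5 oligodendrocyte and 6 of 7 neurone markers. It was also reached by 4 of 5 neutrophil and monocyte, 4 of 4 border macrophage and 1 of 4 endothelial markers. With each array left out in turn, the lower markers numbered 1 to 4 for astrocytes, 1 to 2 for oligodendrocytes, 1 to 4 for neurones, 1 to 3 for neutrophils and monocytes and 0 to 3 for border macrophages, and the higher endothelial markers 0 to 1. None of the markers was listed at 0, and 3 neurone markers had means below 5. Strong signal was not confined to microglial genes. Neutrophil and monocyte markers had means of 11.21 in SOD1 G93A and 12.03 in WT, against 11.93 and 11.79 for microglial markers. The part of the marker lists in the members' values was not tested. The 3' minus 5' log2 signal of the control *Gapdh*, which grows as RNA copies shorten, was 4.12 ± 0.59 in SOD1 G93A and 4.89 ± 0.11 in WT (SD, n = 3 each). The difference was -0.77, at p = 0.1 by an exact permutation test, two-sided, which can give no smaller p with 3 arrays against 3. For the control beta-actin the 3' minus 5' log2 signal was 3.36, 2.75 and 1.92 in SOD1 G93A and 3.88, 2.90 and 3.49 in WT. There the genotypes overlapped, with a difference of -0.75 (p = 0.2 by the same permutation test), and beta-actin was not used as a covariate. The *Gapdh* value lay between 3.47 and 4.63 in SOD1 G93A and between 4.79 and 5.01 in WT. The genotypes did not overlap in it, so its part and that of genotype cannot be told apart. With this value as a covariate 0 of the 22 members passed (5 at an unadjusted p under 0.05, as did 15.1% of all probe sets), and the log2 fold changes were 0.83 (*Sqstm1* 1450957_a_at, adjusted p = 0.0821), 0.59 (*Sqstm1* 1444021_at, adjusted p = 0.197), 0.86 (*Grn* 1448148_at, adjusted p = 0.106) and 0.36 (*Sod1* 1451124_at, adjusted p = 0.331).

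Among 7970 genes of mean log2 signal 7 or more, those whose pattern over the 6 arrays was closest to the highest-signal probe set of *Sqstm1*, *Grn* and *Sod1*, the genes with a passing probe set, were named as a description. For *Sqstm1* these were *Ebna1bp2* (Pearson r = 0.9996), *Vps35l* (0.9985) and *Sdf4* (0.9981). For *Grn* they were *Tmem256* (0.9982), *Tbc1d22a* (0.9948) and *Cyb5b* (0.9948), and for *Sod1* *Slc25a4* (0.9922), *Spred1* (0.9821) and *Prnp* (0.9783). For *Grn* and *Sod1* the highest-signal probe sets were not those that passed. The log2 fold changes of *Slc25a4*, *Spred1* and *Prnp* were -0.013, -0.005 and 0.005. All these values come from the same 6 arrays, and no p is given.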

How the data were processed

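The authors deposited a log2 signal for each probe set, normalised by RMA in Partek according to the submitters' notes, whereas the paper's methods name MAS 5.0. The labels describe the standard Affymetrix protocol and the paper a double amplification. Cords were dissociated with trypsin and hyaluronidase and dead cells were gated out before the CD11b sort. Of 45037 probe sets, without 64 controls, 34945 have 1 gene symbol in the platform annotation, 932 several (none of them with a member) and 9160 none. All entered one limma 3.58.1 fit (lmFit, eBayes, two-sided tests) in R 4.3.3, with Benjamini-Hochberg adjustment over them and a threshold of 0.05. No filter on low signals was applied, and array medians lay between 5.93 and 5.97. Nothing says that replicates were prepared independently beyond the separate pools, so p-values measure the spread between these pools. Genes of lists were measured by their probe set of highest mean signal. Per-array values are given for members that passed and for each member gene's probe set of highest signal. From each list, fold changes are given for up to 4 passing genes of largest change, or the largest 2 if none passed. *Ctsd*, the array values of *C9orf72*, *Sort1*, *Psap*, *Tmem106b*, *Ccs*, *Sod2*, *Sod3*, *Vapb* and *Derl1* were added after their values were seen. So were values of further member probe sets. Members, lists and tests were chosen with earlier results of these data known. The fits were tested on simulated data. The alternatives were the methods' t-test, the methods' fold threshold, trended and robust eBayes, minimum mean signals of 5 and 7, median centring, quantile normalisation, array weights, a replicate block, the *Gapdh* covariate, 1 probe set or the mean of all probe sets per gene, and arrays left out. Annotation and figures used Python 3.11.15 with pandas 2.3.3 and matplotlib 3.10.9. *Optn* and listed genes without a probe set of a single symbol are not reported here.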

Additional observations from a re-analysis of the deposited data

How the results depend on the processing

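The 4 higher members became 0 with the methods' t-test after Benjamini-Hochberg adjustment (0 of all probe sets too), 0 with the *Gapdh* covariate (129 of all), 1 with 1 probe set per gene (1342 genes of all), 2 at the methods' fold threshold with limma's unadjusted p (1081) and 2 with the methods' t-test at those thresholds (795). With each array left out they numbered 2 to 4, the lower members 0 to 1 and all probe sets that passed 479 to 2195, against 2089. Without both arrays numbered 1, 1 member was lower and 3796 probe sets passed, and with array weights 3549 passed. Same-numbered arrays deviated together with r = 0.444, 0.24 and 0.029. The same number was the best match for SOD1 G93A replicates 1 and 2, while replicate 3 correlated best with WT replicate 2 (0.4). The paper reports that litters were matched between groups, but the labels do not link array numbers to litters. The numbers were therefore not taken as pairs. With the replicate block 4519 probe sets passed, and 3 members instead of 1 differed from the other probe sets of their gene. That number was 0 with the methods' t-test, 0 with the *Gapdh* covariate and 0 to 1 with each array left out.

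Signs turned for *Sod1* 1447761_x_at (0.017 with centred arrays, 0.048 with the *Gapdh* covariate, 0.0041 without both arrays numbered 1), *Sod1* 1435304_at (0.28 with the *Gapdh* covariate, 0.054 without both), *Sod1* 1440222_at (0.0024 without both), *Sod1* 1459976_s_at (-0.040 with quantile normalisation), *Grn* 1438629_x_at (-0.012 with quantile normalisation), *Tardbp* 1423723_s_at (0.052 with array weights, 0.10 without both) and *Ubqln2* 1420844_at (-0.15 with array weights, -0.35 without both), whose values with all arrays lay between -0.095 and 0.083, and for *Vcp* 1457588_at (0.26 with all arrays, -0.073 with the *Gapdh* covariate). With each array left out, *Sod1* 1459976_s_at ranged between -0.12 and 0.19, *Sod1* 1435304_at between -0.19 and 0.17, *Sod1* 1447761_x_at between -0.096 and 0.066, *Tardbp* 1423723_s_at between -0.17 and 0.19, *Ubqln2* 1420844_at between -0.30 and 0.27 and *Ubqln2* 1456627_at between -0.074 and 0.043. The causes were not tested.

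List medians moved for other ALS-linked genes (-0.17 at mean signals of 7 or more, -0.035 with the mean of all probe sets, -0.17 to -0.094 with each array left out), autophagy (0.13 with array weights, -0.044 with the *Gapdh* covariate, 0.024 to 0.15 with each array left out), VCP cofactors (-0.011 with the covariate, -0.0091 without both arrays numbered 1, 0.016 with the mean of all probe sets), ubiquilins (0.090 with the covariate) and superoxide handling (0.25 with the covariate, 0.090 to 0.23 with each array left out). Means below 5, as for 2 of the 22 members, lie close to background and limit what a change there can show.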
